A study of Mus musculus with 16 samples.

Results

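The miR-26 family was followed through the repair of a wire-injured mouse carotid artery. It comprises mmu-miR-26a and mmu-miR-26b, called miR-26a and miR-26b from here on, which were found on the array by their exact names and are 2 of the 611 mouse miRNAs measured. The study asked how miRNA levels in the arterial wall change while a neointima, the new cell layer inside an injured artery, forms. All 16 samples were carotid arteries of female ApoE-/- mice of the C57BL/6 background on a western-type diet, so the uninjured controls carried the same deletion and diet as the injured animals. Loss of apolipoprotein E raises blood cholesterol and makes mice prone to atherosclerosis. There were 3 uninjured arteries and 3, 3, 3 and 4 arteries taken 1, 7, 14 and 28 days after injury. The mice were 8 weeks old in the day 1 group and 6 to 8 weeks old in the other groups, per the labels. Each array measured RNA of the whole vessel, so fewer cells of a type and less RNA per cell cannot be told apart.

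MicroRNAs are short RNAs that guide the silencing machinery to messenger RNAs, mainly through a seed near their 5′ end. The miR-26 family is often called growth restraining because it represses Ezh2, a histone methyltransferase, and regulators of the cell cycle in tumour cells. In cultured vascular smooth muscle cells, miR-26a has also been described to target Smad signalling proteins and to hold back differentiation, so its role in the vessel wall is less settled than the name implies. The levels measured here do not test either role. Each miR-26 gene lies within a gene of the small carboxy-terminal domain phosphatase family.

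Both mature sequences are shown, from RefSeq (GRCm38.p6), because the 2 members share their seed and differ at few bases, which bears on how well probes can tell them apart. Capitals mark the seed, bases 2 to 8.
miR-26a: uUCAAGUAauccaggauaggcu
miR-26b: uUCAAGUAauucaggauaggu
They are 22 and 21 bases long and match at 19 of 21 positions. The differences, with positions counted from 1 at the 5′ end of miR-26a, are C11U and C21U. The seed UCAAGUA occurs in 2 of the 1679 mature mouse miRNA names of the RefSeq table, which are these members, and it pairs with UACUUGA in a target. The mature miR-26a is encoded at chr9:119031811-119031832 (Mir26a-1, within Ctdspl) and at chr10:126995543-126995564 (Mir26a-2, within Ctdsp2), both on the plus strand. The mature miR-26b is encoded at chr1:74394324-74394344 on the plus strand, within Ctdsp1. The array cannot divide the miR-26a signal between its 2 genes.

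The opposite strand of the miR-26b hairpin, named miR-26b* on the array, is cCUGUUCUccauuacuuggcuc (chr1:74394360-74394381). It is shown because the same hairpin gives a strand that was bright and a strand that was not: 0 of its 320 spots over the 16 arrays were well above background. Its mean intensities lay between -0.52 and 3.52. No change of that strand can be read from these arrays.

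Across the 16 arrays, the 75th percentile of intensity over 395 mouse probes well above background on every array ran from 401 to 1432, and 251 to 330 miRNAs per array were well above background. The uninjured arrays were at the low end, with 251 to 292 such miRNAs. All day 1 and day 7 arrays were on slide 1, all uninjured and day 14 arrays on slide 2, and day 28 had 2 arrays on each. Day 1 and day 7 can therefore be compared with uninjured arteries on a common slide only through day 28. Levels are given as log2 of the intensity divided by that array's 75th percentile, called the scaled level. Both members were far above background: each had 2 probes, which were well above background on 16 of 16 arrays with 0 saturated spots.

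On the scale defined above, miR-26b was the member with the wider swing. It fell below the uninjured level at day 7, was lowest at day 14 and lay among the uninjured and day 1 values at day 28. The wider swing depended on the scaling. With the percentile over every probe, the largest difference between 2 groups was 0.96 for miR-26a and 0.90 for miR-26b. Without scaling the largest differences were 0.87 for miR-26a and 0.86 for miR-26b. The scaled log2 levels of miR-26b were 1.38, 1.15 and 0.99 in the uninjured arteries and 1.53, 1.41 and 1.37 at day 1. They were 0.75, 0.67 and 0.81 at day 7 and 0.38, 0.45 and 0.52 at day 14. At day 28 they were 1.12, 1.59, 1.40 and 1.24. Every day 14 array was thus below every day 7 array, every day 7 array was below every array of the other 3 groups, and day 28 overlapped both uninjured and day 1. The group means were 1.44 ± 0.09 (SD, n = 3) at day 1, 1.34 ± 0.20 (n = 4) at day 28, 1.17 ± 0.20 (n = 3) in uninjured arteries, 0.74 ± 0.07 (n = 3) at day 7 and 0.45 ± 0.07 (n = 3) at day 14. Of the neighbours in that order, only uninjured and day 7 differed beyond their spread by limma.

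miR-26a also ran lower at days 7 and 14, with more scatter among the uninjured arteries. Its scaled log2 levels were 2.65, 2.47 and 2.04 in the uninjured arteries and 2.41, 2.21 and 2.10 at day 1. They were 1.60, 2.05 and 1.99 at day 7 and 1.81, 1.93 and 2.04 at day 14. At day 28 they were 2.44, 2.72, 2.71 and 2.61. The lowest uninjured array stood level with the highest day 7 and day 14 arrays, whereas every day 28 array was above every day 1, day 7 and day 14 array. The group means were 2.62 ± 0.13 (SD, n = 4) at day 28, 2.39 ± 0.31 (n = 3) in uninjured arteries, 2.24 ± 0.16 (n = 3) at day 1, 1.93 ± 0.12 (n = 3) at day 14 and 1.88 ± 0.25 (n = 3) at day 7. No 2 neighbours in that order differed beyond their spread by limma.

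**Figure D1:**
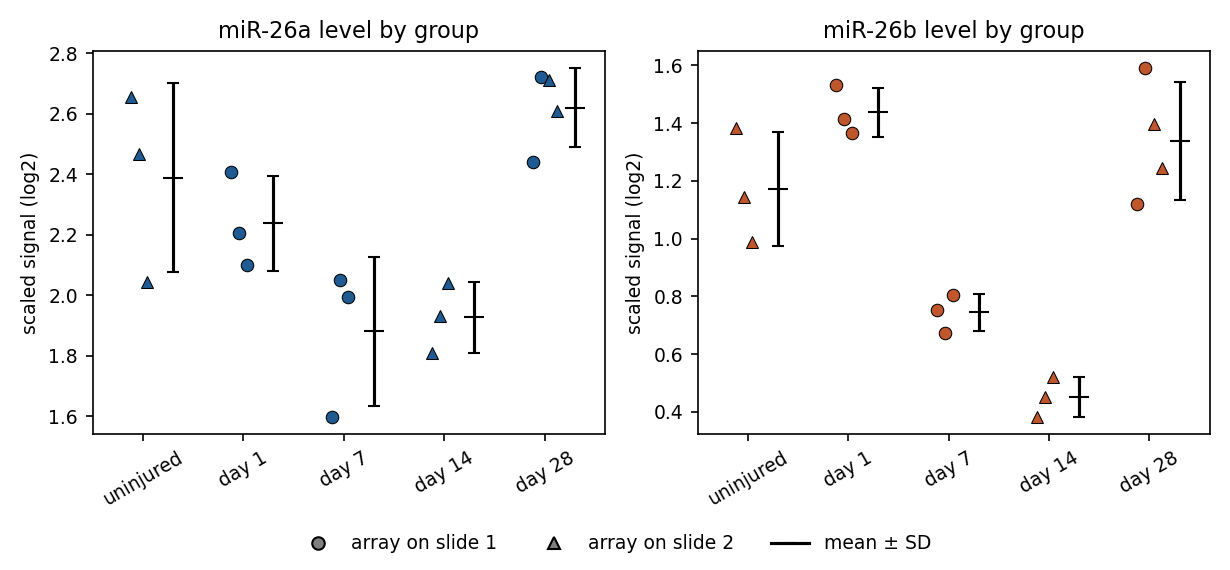
Scaled log2 level of miR-26a (left) and miR-26b (right) on each array, by group. Circles are arrays on slide 1 and triangles arrays on slide 2, and the bars beside them give the mean and SD. For miR-26b the day 14 arrays, at 0.38 to 0.52, lie below all others, and for miR-26a 1 uninjured array, at 2.04, lies between the highest day 7 array, at 2.05, and the highest day 14 array, with which it is level to 2 decimals.

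The first question the design asks is how each day differed from the uninjured artery. At day 14 miR-26b fell by 0.72 ± 0.14 on the log2 scale (SE, 95% interval -1.01 to -0.42), a 1.65-fold reduction, with an adjusted p of 0.00106 by limma with Benjamini-Hochberg adjustment over the 322 miRNAs tested. At day 7 it fell by 0.43 ± 0.14 (adjusted p 0.0191, limma). At day 14 miR-26a fell by 0.46 ± 0.17 (-0.83 to -0.09, adjusted p 0.0469, limma) and at day 7 by 0.51 ± 0.17 (-0.88 to -0.14, adjusted p 0.0251, limma). These calls were 2 of 2 members lower at both days, against 22.4% of all tested miRNAs called lower at day 7 and 18.9% at day 14 (50% and 39.1% called in either direction). The groups did not overlap for miR-26b at days 7 and 14 and for miR-26a at day 14, beside 61.2% of all tested miRNAs at day 7 and 50.9% at day 14. A moderated F test over the 4 days called both members (adjusted p 0.00504 for miR-26a and 0.000131 for miR-26b, limma), as it did 61.2% of all tested miRNAs. All directions here are relative to the array's own 75th percentile: unscaled, miR-26a was above the uninjured level at days 7 and 14 by 0.46 and 0.20, and miR-26b was above it at day 7 by 0.54 with a difference of -0.06 at day 14.

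The unscaled intensities of miR-26b were 1044, 1191 and 1238 on the uninjured arrays and 676.6, 983 and 2057 on the day 14 arrays. The day 14 intensities thus spread around the uninjured ones, although their scaled levels agreed closely. Without scaling, the median of all tested miRNAs was itself higher than uninjured by 0.86 at day 7 and 0.52 at day 14, and with median scaling it was at -0.12 and -0.22. Relative to the median of all tested miRNAs, miR-26b lay between -0.47 and -0.33 at day 7 and between -0.74 and -0.52 at day 14 under the 5 scalings tried. For miR-26a the same measure lay between -0.56 and -0.37 at day 7 and between -0.48 and -0.19 at day 14.

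The firmness of these 4 calls differed. Over the alternative settings, leaving out arrays aside, miR-26b was called lower in 17 of 20 at day 7 and 20 of 21 at day 14. miR-26a was called lower in 13 of 20 and 9 of 21. The miR-26a calls were lost with the percentile over every probe (adjusted p 0.0599 at day 7 and 0.135 at day 14, limma). They were also lost with normexp background (0.0512 and 0.0933, limma), and that at day 14 with quantile normalization (0.217, limma). The miR-26b change at day 14 held with slide as a block (-0.72, adjusted p 0.00145, limma) and within slide 2 (-0.72, adjusted p 0.00547, limma). It held when each of the 16 arrays was left out in turn, with values from -0.81 to -0.61. The miR-26b change at day 7 was not called with the slide block (-0.46, adjusted p 0.152, limma), without day 7 replicate 2 (-0.39, adjusted p 0.0522) or without uninjured replicate 1 (-0.32, adjusted p 0.0925). The miR-26a change at day 7 was lost with the slide block (-0.43, adjusted p 0.300, limma), without day 7 replicate 1 (-0.37, adjusted p 0.122), without uninjured replicate 1 (-0.37, adjusted p 0.114) and without uninjured replicate 2 (-0.47, adjusted p 0.0764). The miR-26a call at day 14 rested on little: its groups were apart by 0.0028 log2 units, it was lost in 11 of the 16 runs that left out an array (among them each without 1 of the 3 day 14 arrays, uninjured replicate 1 or uninjured replicate 2), and within slide 2 its adjusted p was 0.0722 (limma).

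At day 1, 0 of 2 members were called by limma, also at an unadjusted p under 0.05, beside 32.3% of all tested miRNAs. miR-26a differed from uninjured by -0.15 ± 0.17 (-0.52 to 0.22, adjusted p 0.509, limma) and miR-26b by 0.27 ± 0.14 (-0.03 to 0.56, adjusted p 0.164, limma). The median of all tested miRNAs at that day ran from -0.33 with median scaling through 0.24 with the main scaling to 0.43 without scaling. With median scaling miR-26a was at -0.80 (adjusted p 0.0121, limma) and miR-26b at -0.39, below the uninjured level in place of above it. No day 1 direction is therefore stated for either member.

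At day 28, 0 of 2 members were called by limma, also at an unadjusted p under 0.05, beside 26.1% of all tested miRNAs. miR-26a was 0.23 ± 0.16 from uninjured (-0.11 to 0.58, adjusted p 0.337, limma) and miR-26b 0.17 ± 0.13 (-0.11 to 0.44, adjusted p 0.399, limma). The intervals leave room for a moderate rise and exclude a reduction as large as that of miR-26b at day 14. Pooling all 13 injured arrays against the 3 uninjured ones gave -0.19 for miR-26a (two-sided exact permutation p 0.425) and -0.15 for miR-26b (exact permutation p 0.566), where the smallest p that the 560 regroupings can give is 0.00179. Within slide 2 the pooled differences were -0.17 and -0.37 (exact permutation p 0.589 and 0.304). The time after injury thus has to be kept apart to see either change.

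**Figure D2:**
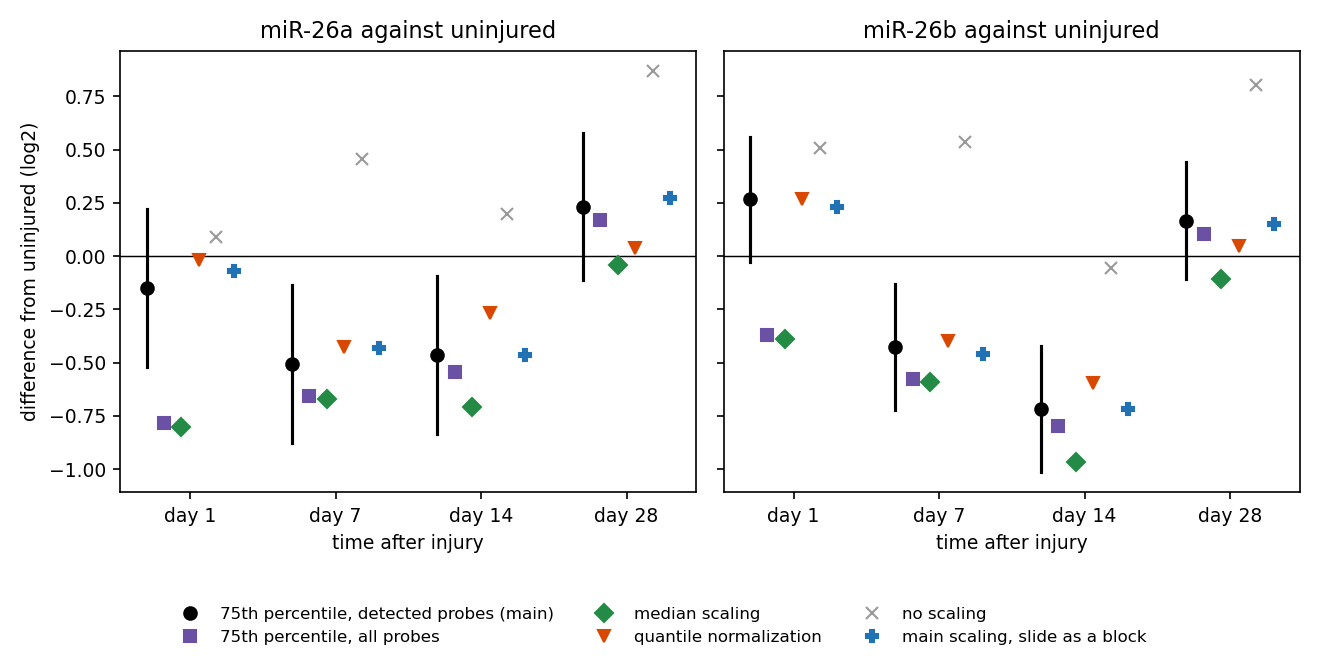
Difference of each day from uninjured in log2 units for miR-26a (left) and miR-26b (right), under the main scaling with its 95% interval (black), under 4 other scalings, and with slide as a block. The day 14 value of miR-26b is -0.72 under the main scaling and -0.06 without scaling, the grey cross nearest to 0.

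The second question is whether the levels changed between days. From day 14 to day 28 both members rose, against 9.94% of all tested miRNAs called higher in that comparison. miR-26b rose by 0.88 ± 0.13 (0.61 to 1.16, 1.85-fold, adjusted p 0.00119, limma) and miR-26a by 0.69 ± 0.16 (0.35 to 1.04, 1.62-fold, adjusted p 0.0118, limma). The groups did not overlap for either member, which was so for 24.5% of all tested miRNAs. With slide as a block the values were 0.87 (adjusted p 0.0112) for miR-26b and 0.73 (adjusted p 0.0355) for miR-26a. Within slide 2, which holds 2 day 28 arrays, they were as large, at 0.87 and 0.73, with adjusted p of 0.0668 and 0.0801 by limma. The sign was positive under all 5 scalings, from 0.64 to 0.90 for miR-26b and from 0.31 to 0.71 for miR-26a, with the lower ends from quantile normalization. The miR-26a call was lost under all 4 other scalings, with adjusted p of 0.0665 (median), 0.108 (percentile over every probe), 0.239 (quantile) and 0.904 (no scaling) by limma, and that of miR-26b without scaling (adjusted p 0.761, limma). With replicate and slide blocks together both were lost (adjusted p 0.242 for miR-26a and 0.138 for miR-26b, limma). The miR-26a call was also lost without day 14 replicate 1 (0.64, adjusted p 0.0601, limma).

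Against day 7, day 28 was higher by 0.74 ± 0.16 for miR-26a (1.67-fold, adjusted p 0.00332, limma) and by 0.59 ± 0.13 for miR-26b (1.51-fold, adjusted p 0.00326, limma), beside 17.1% of all tested miRNAs called higher. These 2 calls held within slide 1, where the values were 0.70 and 0.61 (adjusted p 0.0434 for both, limma), and in all 16 runs that left out an array. With median scaling that of miR-26b was lost (0.48, adjusted p 0.0649, limma). Without scaling both were lost (0.41, adjusted p 0.645, for miR-26a and 0.27, adjusted p 0.770, for miR-26b, limma), as they were with replicate and slide blocks together (adjusted p 0.0701 and 0.0614, limma). Between day 7 and day 14, miR-26b differed by -0.29 ± 0.14 (-0.59 to 0.0039, adjusted p 0.188, limma) and miR-26a by 0.05 ± 0.17 (adjusted p 0.913, limma). Of all tested miRNAs, 10.2% were called in that comparison, and these members were not.

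miR-26b fell between day 1 and day 7 by 0.69 ± 0.14 (adjusted p 0.00118, limma), on the same slide and within it (adjusted p 0.00847), while 24.5% of all tested miRNAs were called lower. Its call was lost with median scaling (-0.20) and where the percentile was taken from every probe (-0.21), and the sign turned without scaling (0.03). The median of all tested miRNAs was -0.19 in this comparison under the main scaling. Relative to that median, miR-26b lay between -0.75 and -0.47 under the 5 scalings. For miR-26a the difference was -0.36 (adjusted p 0.105, limma), which turned to 0.13 under each of the 2 scalings just named. Day 14 was below day 1 by 0.98 for miR-26b (log2 difference -0.98, adjusted p 0.000106, limma), against 22.4% of all tested miRNAs called lower, with no call where the percentile was taken from every probe (-0.43, adjusted p 0.153), without scaling (-0.57, adjusted p 0.436) or with replicate and slide blocks together (-1.07, adjusted p 0.0994, limma).

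The 2 members can also be set against each other within an array, where the scaling factor cancels. The log2 level of miR-26a minus that of miR-26b depends on how brightly each probe shines, so only its change between arrays can be read. It was 1.27, 1.32 and 1.06 on the uninjured arrays, 0.88, 0.79 and 0.73 at day 1, and 0.85, 1.38 and 1.19 at day 7. At day 14 it was 1.42, 1.48 and 1.52, and at day 28 it was 1.32, 1.13, 1.32 and 1.36. All day 1 arrays were below and all day 14 arrays above the uninjured arrays, while day 7 and day 28 overlapped them. miR-26b was thus higher relative to miR-26a at day 1 (mean 0.80 ± 0.07, SD, n = 3) and lower relative to it at day 14 (1.47 ± 0.05, n = 3) than in uninjured arteries (1.22 ± 0.14, n = 3). With both probes of each member averaged, the values kept that order, at 0.55 to 0.69 at day 1, 0.87 to 1.16 in uninjured arteries and 1.28 to 1.32 at day 14. These are descriptions with no test, and day 1 was on the other slide.

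**Figure D3:**
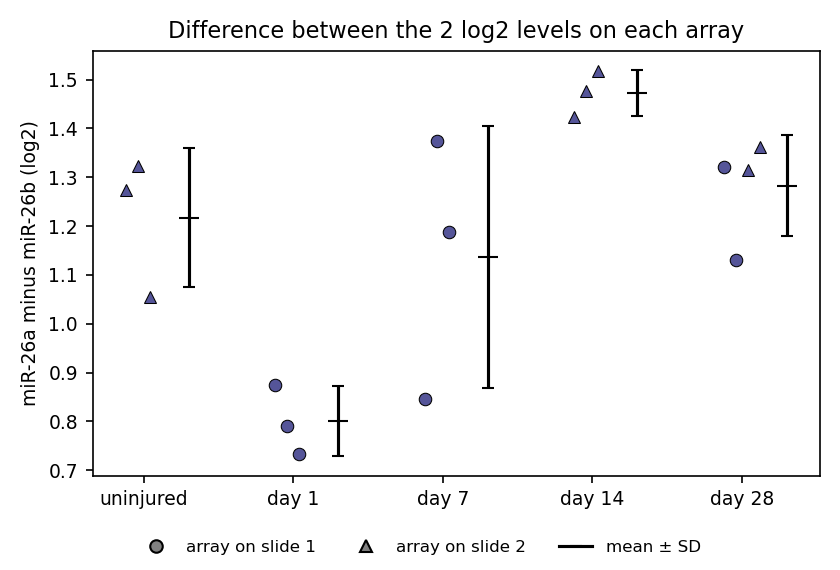
Log2 level of miR-26a minus that of miR-26b on each array, by group, with circles for slide 1, triangles for slide 2 and bars for the mean and SD. The day 1 arrays, at 0.73 to 0.88, lie below and the day 14 arrays, at 1.42 to 1.52, above the uninjured arrays.

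The probes of each member gave the same account. Over the 16 arrays, the log2 levels of the 2 probes correlated at r = 0.980 for miR-26a and r = 0.995 for miR-26b. The dimmer probe put miR-26b at -0.70 at day 14 against uninjured and at 0.91 at day 28 against day 14. For miR-26a the dimmer probe gave -0.47 and 0.68. Probes of 1 miRNA read the same labelled RNA, so their likeness speaks to the measurement and not to the animals. How far the probes of one member bind the other was not tested.

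Over all arrays the levels of miR-26a and miR-26b had a Pearson r of 0.776 and a Spearman rho of 0.809 (n = 16), and their deviations from the group means had r = 0.693. With quantile normalization r was 0.643. These points share RNA, array and scaling factor, and are given as descriptions.

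The miRNAs most like miR-26a over the 16 arrays, by Pearson r among 217 others well above background on every array, were miR-23a (0.943), miR-27b (0.934), miR-455 (0.917), miR-23b (0.896) and miR-101a (0.876). miR-23b and miR-27b come from one gene cluster, miR-23a from its paralogous cluster, and miR-101a is known to target Ezh2. The most like miR-26b were miR-30b (0.935), miR-101a (0.910), miR-194 (0.905), miR-30c (0.882) and miR-29c (0.872), of which miR-29c is known to restrain collagen genes. At day 14 all 5 of the latter were lower than uninjured by limma: miR-30c by 1.22 (log2 difference -1.22, adjusted p 2.05e-05), miR-29c (-1.31, adjusted p 8.93e-06), miR-101a (-0.61, adjusted p 0.00683), miR-30b (-0.47, adjusted p 0.0394) and miR-194 (-0.47, adjusted p 0.0461). Each of them was higher at day 28 than at day 14, by 0.54 to 0.97. Of all tested miRNAs, 18.9% were called lower at day 14, and 9.94% were called higher at day 28 than at day 14. Unlike miR-26b, miR-29c was still called lower than uninjured at day 28 (-0.45, adjusted p 0.0195, limma). miR-30b was called higher at day 1 (0.48, adjusted p 0.0426, limma). Of the 5 most like miR-26a, miR-23a was not called at day 14 (-0.44, adjusted p 0.0609, limma), while the others were called lower. These miRNAs were picked for their likeness over the same arrays, so their values describe the shared profile and do not test it.

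Least like both members were miRNAs that rose while they fell. For miR-26b these were miR-431 (-0.847), miR-337-5p (-0.838) and miR-379 (-0.797), and for miR-26a they were miR-337-5p (-0.705), miR-431 (-0.700) and miR-411 (-0.679). miR-379, miR-411, miR-431 and miR-337-5p belong to the large imprinted miRNA region that is active in development. miR-379 was 1.74 above uninjured at day 7 (adjusted p 5.41e-05, limma) and 1.16 lower at day 28 than at day 14 (log2 difference -1.16, adjusted p 0.00468, limma). With quantile normalization the likeness of miR-194 to miR-26b dropped to r = 0.342 and that of miR-455 to miR-26a to 0.563, while miR-101a (0.871 and 0.792) kept a place among the 5 most like for both members.

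**Figure D4:**
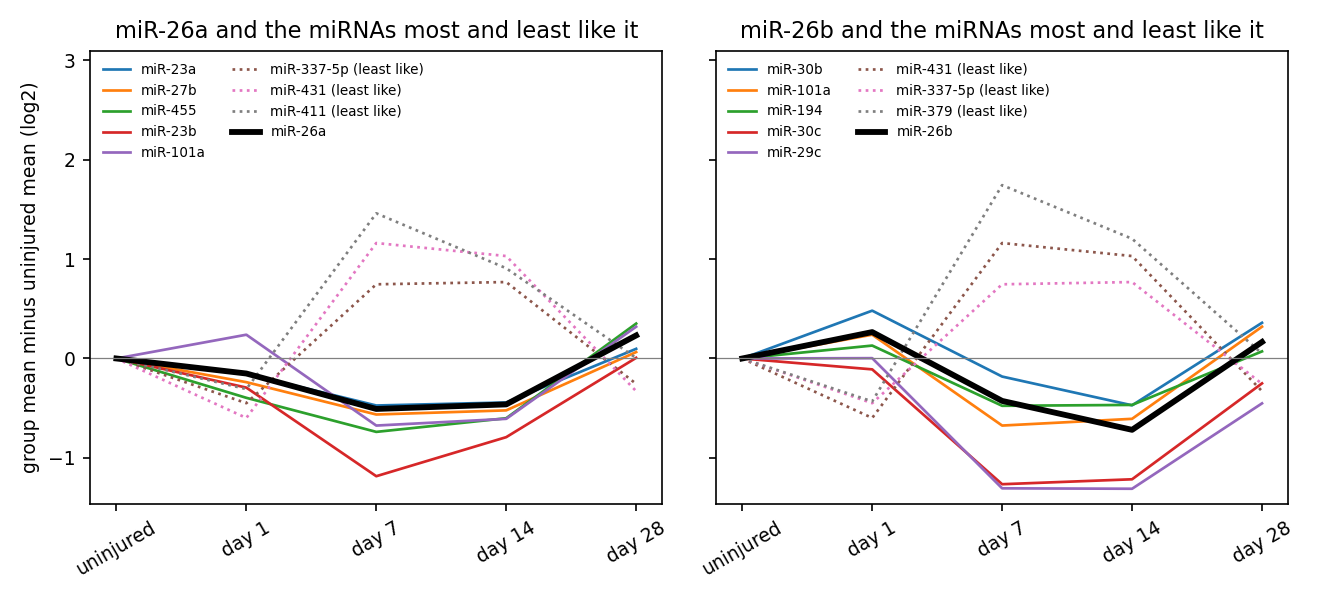
Group mean minus the uninjured mean (log2) for miR-26a (left) and miR-26b (right) in black, with the 5 miRNAs most like each over the 16 arrays (solid) and the 3 least like (dotted). At day 14 the solid lines lie between -1.31 and -0.44 and the dotted lines between 0.77 and 1.21.

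Among 31 other miRNAs often described as growth restraining (the let-7, miR-15, miR-34, miR-101, miR-29 and miR-99 families, miR-143, miR-145 and others), the members did not move as a block. By limma 13 were lower and 7 higher than uninjured at day 7, with a median of -0.41 beside 0.0036 over all tested miRNAs, of which 22.4% were called lower and 27.6% higher. At day 14, 10 were lower and 5 higher (median -0.20, beside 0.00 over all), against 18.9% and 20.2% of all tested miRNAs. Without scaling these counts turned to 1 lower and 9 higher at day 7 and 2 lower and 4 higher at day 14, with medians of 0.56 and 0.46. Over all tested miRNAs the unscaled medians were 0.86 and 0.52, with 131 and 72 called in either direction. miR-34a, a p53 target that halts the cell cycle, rose by 2.78 at day 14 (adjusted p 2.95e-07, limma). In the opposite direction went miR-143 (-2.26, adjusted p 5.84e-06) and miR-145 (-2.55, adjusted p 1.05e-05), miRNAs of contractile smooth muscle, and miR-29c. From day 14 to day 28, 7 of the 31 rose and 2 fell (median 0.25, beside 0.05 over all), against 9.94% and 5.59% of all tested miRNAs, and without scaling 0 were called in either direction. Among those that rose were miR-29b (0.97, adjusted p 0.00296), miR-29c (0.86, adjusted p 0.00119), miR-101a (0.93, adjusted p 0.00133) and miR-101b (0.61, adjusted p 0.00723). Of the 31, 6 were, like both miR-26 members, called lower at day 14 and higher at day 28 than at day 14 under the main scaling. These were miR-29b, miR-29c, miR-101a, miR-143, miR-145 and miR-125b-5p. Both calls use the same day 14 arrays, so low values there favour both. The share of all tested miRNAs with both calls is not given here, so whether 6 of 31 is many cannot be read.

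At day 1, 9 of the 31 were lower and 4 higher (median -0.16, beside 0.24 over all), against 12.7% and 19.6% of all tested miRNAs. The counts were 16 lower and 0 higher with the percentile over every probe, 18 and 0 with median scaling, and 0 and 0 without scaling. Of all tested miRNAs, 112, 120 and 36 were called in either direction under these scalings in turn, with medians of -0.30, -0.33 and 0.43. The shares by direction under these scalings are not given here, so whether the list counts are many cannot be read. Examples under the main scaling were miR-99a at -1.27 (adjusted p 0.000311, limma), miR-100 at -1.28 (adjusted p 0.000359) and let-7b at -1.22 (adjusted p 0.000672). At day 28, 7 were higher and 7 lower (median 0.15, beside 0.04 over all), against 16.8% and 9.32% of all tested miRNAs. The counts were 1 higher and 8 lower under median scaling, and 7 and 0 without scaling. Of all tested miRNAs, 71 and 62 were then called in either direction, with medians of -0.20 and 0.63. Under the main scaling miR-34a was at 2.34 (adjusted p 1.1e-06, limma) and miR-143 at -1.39 (adjusted p 0.000317). The day 28 median turned to -0.13 with median scaling and the day 1 median to 0.08 without scaling.

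Of the miRNAs often described as growth promoting (the miR-17-92 cluster and its paralogs, miR-21, miR-31, miR-155, miR-221 and miR-222), 14 of the 16 listed were tested. miR-17 was not well above background on any array, and miR-106a was not matched by name. By limma 8, 8, 7 and 7 of them were higher than uninjured at days 1, 7, 14 and 28, and 1, 0, 0 and 0 were lower. Of all tested miRNAs 19.6%, 27.6%, 20.2% and 16.8% were called higher at these days. Their medians were 0.86, 0.78, 0.51 and 0.57, and stayed above 0 under all 5 scalings. At day 1 the count of higher members dropped from 8 to 2 and the median to 0.22 with the percentile over every probe, and to 2 and 0.20 with median scaling. Under these 2 scalings in turn, the count stayed at 8 and 8 at day 7. It dropped from 7 to 5 and 5 at day 14, and from 7 to 5 and 4 at day 28. Of all tested miRNAs, 108 and 128 were then called in either direction at day 14, and 59 and 71 at day 28. At day 14 miR-21, abundant in proliferating smooth muscle and inflamed tissue, was at 2.87 (adjusted p 3.97e-07), miR-155 at 3.20 (adjusted p 3.82e-06) and miR-221, which represses p27, at 1.52 (adjusted p 0.000266). From day 14 to day 28, 0 of the 14 were called higher and 1 was called lower, miR-18a (-0.57, adjusted p 0.0364, limma), beside 9.94% and 5.59% of all tested miRNAs.

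Marker miRNAs of several cell types were called against uninjured at days 7 and 14, and some also at days 1 and 28, when neither miR-26 member was called. All marker counts are given under the main scaling only. Of all tested miRNAs, 12.7%, 22.4%, 18.9% and 9.32% were called lower at days 1, 7, 14 and 28. Those called higher were 19.6%, 27.6%, 20.2% and 16.8%. Of 5 leukocyte markers (miR-223, miR-142-3p, miR-142-5p, miR-150 and miR-155), 4 were higher at each of days 1, 7, 14 and 28. Their summed scaled level was 1.61 to 1.97 in uninjured arteries, 13.1 to 17.4 at day 7 and 10.3 to 16.2 at day 14. It was 25.6 to 28.3 at day 1 and 8.57 to 11.9 at day 28. Both contractile smooth muscle markers, miR-143 and miR-145, were lower than uninjured at days 7, 14 and 28. They were higher at day 28 than at day 14, beside 9.94% of all tested miRNAs. Their sums were 3.53 to 6.37, 1.54 to 1.80, 1.05 to 1.1 and 1.89 to 2.08 in uninjured, day 7, day 14 and day 28 arteries. Of 4 nerve markers tested, 4 were lower at day 7, 4 at day 14 and 1 at day 28. The sum over the list was 0.998 to 2.43 in uninjured arteries and 0.138 to 0.194 at day 7. Of 3 fat-associated miRNAs, 1, 2, 3 and 2 were lower at days 1, 7, 14 and 28. Their sums were 8.37 to 11.5 in uninjured arteries and 2.47 to 2.70 at day 14. The part of these cell types in the miR-26 differences was not tested.

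The sum of 3 red cell miRNAs (miR-451, miR-144 and miR-486) was 16.3 to 42.9 in uninjured arteries, 15.2 to 25.0 at day 14 and 25.0 to 41.6 at day 28. Against uninjured, 0 of 3 were called at days 7 and 14, beside 50% and 39.1% of all tested miRNAs. Between days 14 and 28, 0 of 3 were called, beside 9.94% of all called higher and 5.59% lower. The endothelial sum of miR-126-3p and miR-126-5p was 9.70 to 10.3 in uninjured arteries, and 12.3 to 15.4, 12.2 to 13.9 and 11.2 to 15.7 at days 7, 14 and 28 in turn. The 1 of these tested was called higher at day 7 (0.45), as were 27.6% of all tested miRNAs. Of 4 striated muscle markers tested, 1, 2 and 3 were lower than uninjured at days 7, 14 and 28, beside 22.4%, 18.9% and 9.32% of all tested miRNAs. The sums over that list were 8.01 to 12.3 in uninjured arteries, 3.66 to 6.58 at day 14 and 2.49 to 5.28 at day 28. The liver marker miR-122 was at the floor on all day 7, day 14 and day 28 arrays, and the epithelial markers were near it in uninjured arteries, where their sum over 5 miRNAs was 0.0933 to 0.139. At day 28 that sum was 0.0979, 0.110 and 0.132 on 3 arrays and 1.69 on day 28 replicate 2. Without that array the rise from day 14 to day 28 was 0.66 for miR-26a (adjusted p 0.0343, limma) and 0.80 for miR-26b (adjusted p 0.00404, limma).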

How the data were processed

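RNA of 16 carotid arteries was measured on 1-colour Agilent mouse miRNA arrays (Sanger release 12, 700 ng RNA each, per the labels). The deposited scanner files hold spot intensity processed by the authors with Agilent Feature Extraction 9.5.1.1, per the file headers. The authors' deposited value table (610 miRNAs, linear intensity, neither centred nor scaled between arrays; 99.9% of values lie within 0.1% of the scanner files' total gene signal) was an alternative; its column medians were 3.81 to 7.93 for uninjured arrays and 7.62 to 16.6 for injured ones.

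Unmarked spots of a probe were averaged, divided by the array's 75th percentile over 395 probes well above background on all arrays, floored at 0.0181 (log2 -5.79) and put on the log2 scale. A probe needed 50% of its spots well above background. Each miRNA was represented by its brightest probe. The 322 miRNAs detected on every array of at least 1 group were tested. limma 3.58.1 in R 4.3.3 fitted the 5 groups, with no covariate, and p-values were adjusted by Benjamini-Hochberg per comparison with a threshold of 0.05. The script was tested on simulated data. The limma p-values rest on the spread between animals within groups, with 3 to 4 animals per group, per the labels. All 5 groups shared 1 estimate of that spread for each miRNA, moderated by that of the other miRNAs. The number of animals limits the precision.

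The members and lists were chosen with earlier results of these data known. Members are described in full. Other named miRNAs are the 5 most and 3 least like each member, up to 4 of each growth list per comparison by smallest p, the opposite strand, and markers. Alternatives covered scaling, background, filter, floor, probe choice, slide, replicate number, array weights and each array left out.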

Additional observations from a re-analysis of the deposited data

Results flagged for a closer look

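In 6 tests of a member between 2 days, the difference itself was called by limma under the main scaling. None of the 6 was called without scaling. That of miR-26a between days 14 and 28 was lost under every other scaling. That of miR-26b between days 1 and 7 was also lost with median scaling and with the percentile over every probe. Its difference between days 1 and 14 was also lost with the percentile over every probe, and that between days 7 and 28 with median scaling. miR-26b was lower at day 7 than at day 1 (log2 difference -0.69) and lower at day 14 than at day 1 (-0.98), beside 24.5% and 22.4% of all tested miRNAs called lower. It was higher at day 28 than at day 14 (0.88) and than at day 7 (0.59). miR-26a was higher at day 28 than at day 14 (0.69) and than at day 7 (0.74). Of all tested miRNAs, 9.94% and 17.1% were called higher in these 2 comparisons. For the levels of these 2 miRNAs, no day 28 array stood far from the others of its group, and the other groups had too few arrays for that check.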

How the results depend on the processing

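The miR-26b fall at day 14 against uninjured was called in 20 of 21 alternative settings, the exception being no scaling (-0.057). Values are log2 differences, and the causes of the changes were not tested. Without scaling, miR-26a gave 0.092, 0.46 and 0.20 at days 1, 7 and 14 against uninjured, 0.36 for day 7 and 0.11 for day 14 against day 1, -0.26 for day 14 against day 7, and 0.67 and 0.41 for day 28 against days 14 and 7. miR-26b gave 0.54 at day 7 against uninjured, 0.028 for day 7, -0.57 for day 14 and 0.30 for day 28 against day 1, and 0.86 and 0.27 for day 28 against days 14 and 7. With the 75th percentile over all probes, miR-26a gave -0.79, -0.66 and -0.54 at days 1, 7 and 14 against uninjured. The day 1 value was called (adjusted p 0.0324, limma), while the calls at days 7 and 14 were lost (0.0599 and 0.135). Against day 1, miR-26a gave 0.13, 0.24 and 0.96 for days 7, 14 and 28, of which only 0.96 was called (adjusted p 0.00752, limma). For day 28 against day 14 it gave 0.71 without a call. miR-26b gave -0.37 at day 1 against uninjured and -0.21, -0.43 and 0.47 for days 7, 14 and 28 against day 1. With median scaling, miR-26a gave -0.80 and -0.041 at days 1 and 28 against uninjured, and 0.13, 0.096 and 0.76 for days 7, 14 and 28 against day 1. It gave -0.039 for day 14 against day 7 and 0.67 for day 28 against day 14. Of these miR-26a values, only -0.80 and 0.76 were called (adjusted p 0.0121 and 0.0125, limma). miR-26b gave -0.39 and -0.11 at days 1 and 28 against uninjured, -0.20 and 0.28 for days 7 and 28 against day 1, and 0.48 for day 28 against day 7. Quantile normalization gave miR-26a -0.27 at day 14 against uninjured and 0.31 at day 28 against day 14, neither of them called. At day 28 against uninjured, total gene signal gave -0.10 and -0.15 and the authors' value table -0.053 and -0.10 for miR-26a and miR-26b.

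Normexp background gave miR-26a -0.47 and -0.41 at days 7 and 14, neither of them called. Array weights gave it -0.30 at day 1, which was called (adjusted p 0.0371, limma). The day 14 value of miR-26a stayed at -0.46 and lost its call with no filter, a lower floor, slide as a block, within slide 2 and with only the 2 groups compared, and was -0.47 as the mean over probes. With only the 2 groups compared, its day 7 value of -0.51 was not called. Slide as a block gave -0.43 and -0.46 for miR-26a and miR-26b at day 7 and -0.033 for miR-26a at day 14 against day 7. Within slide 2, day 28 against day 14 was 0.73 and 0.87.

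No pairing by replicate number was seen, though these values cannot settle whether the samples were paired. Deviations from the group means on same-numbered arrays of different groups correlated at a median of -0.06 (8 of 30 pairs over 0.1). On differently numbered arrays the median was 0.01 (25 of 72 pairs over 0.1). Of 16 arrays, 4 were most like a same-numbered array. With a replicate block, miR-26a kept -0.51 and -0.46 at days 7 and 14 without a call. With replicate block and slide block, miR-26a gave 0.077, -0.28 and -0.46 at days 1, 7 and 14 against uninjured, -0.18 for day 14 against day 7, and 0.85 and 0.67 for day 28 against days 14 and 7. miR-26b then gave -0.34 at day 7 against uninjured, -1.07 for day 14 against day 1, and 0.97 and 0.59 for day 28 against days 14 and 7.

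Leaving out each array in turn gave miR-26a -0.68 to -0.37 at day 7 and -0.63 to -0.33 at day 14 against uninjured, -0.10 to 0.13 for day 14 against day 7, 0.64 to 0.75 for day 28 against day 14 and 0.31 to 0.47 for day 28 against day 1. It gave miR-26b -0.52 to -0.32 at day 7 against uninjured. The count of all miRNAs called ranged over the alternatives from 10 to 197 (day 1), 45 to 200 (day 7), 72 to 179 (day 14) and 21 to 107 (day 28), the low ends coming from the replicate block and slide block except at day 14, where it was no scaling.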
